A study of Mus musculus with 6 samples.

Results

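The axon guidance ligands and receptors of mouse cells labelled as lung microvascular endothelial were described across 6 RNA libraries. They were chosen by name alone, as the 66 protein-coding genes of 21999 genes in the deposited table that encode semaphorins (Sema3 to Sema7), plexins (Plxn), neuropilins (Nrp), ephrins (Efn), Eph receptors (Eph), Slits, Robos, netrins (Ntn) and Unc5 receptors. No measured value entered this name rule, but the members were chosen with earlier results of these data known. The cells were labelled as LMVEC, the endothelial lining of small lung vessels, and came from untreated mice of a mixed SV129/B6 background. One group was Ptprz1+/+ (3 isolations) and the other Ptprz1-/- (3 isolations), Ptprz1 being the gene of a receptor protein tyrosine phosphatase. Each isolation was a pool of 2 to 5 mice that were 3 to 8 weeks old, and the cells were cultured to confluence and then sorted on magnetic beads against CD31, the product of Pecam1, so a library describes a pooled culture and not a mouse. The comparison asks whether the RNA levels of guidance genes differ with the genotype of Ptprz1.

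These families were found through their action on growing axons, which they attract or repel, and many of them also steer vessel sprouts. Class 3 semaphorins are secreted and bind neuropilins with plexins, while the other vertebrate semaphorins are membrane bound and mostly bind plexins directly. Ephrins are cell surface ligands that signal through Eph receptor tyrosine kinases on the neighbouring cell, and the pair ephrin-B2 and EphB4 marks arterial and venous endothelium. Slits are secreted ligands of Robo receptors, and netrins are secreted relatives of laminin whose repulsive receptors are the Unc5 proteins.

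Reads counted on genes numbered 16392715 to 17709663 in the Ptprz1+/+ libraries and 14496881 to 15601584 in the libraries labelled Ptprz1-/-. Ptprz1 itself had 197, 1837 and 508 reads against 1138, 1320 and 895, so the counts did not separate the genotypes and every direction below rests on the labels. The summed level of 12 endothelial markers, in CPM (counts scaled to the size of each library), was 38.1, 40.6 and 598 for replicates 1, 2 and 3 of Ptprz1+/+ and 29.2, 24.2 and 199 for those of Ptprz1-/-. Pecam1, the gene of the sorted antigen, was at 3.81, 4.40 and 91.0 CPM against 1.36, 1.51 and 32.4 CPM, and none of the 12 was at 0. The summed level of 10 fibroblast markers ran from 20414 to 34475 CPM and that of 8 smooth muscle and pericyte markers from 841 to 4590 CPM. The fibroblast sum was thus far above the endothelial sum in all 6 libraries, which goes against the labelled cell type, most of all in the 4 libraries of replicates 1 and 2. Col1a1, Col1a2, Col3a1 and Fn1 led the fibroblast sum. Gene by gene the lists overlapped in Ptprz1+/+ replicate 3, where Cdh5 (199 CPM) was above Dpt (176), Lum (122) and Postn (41.0) and below the other fibroblast markers. They also overlapped in Ptprz1-/- replicate 3, where Cdh5 (61.3 CPM) was above Postn (18.6). In Ptprz1-/- replicate 1, Esam (9.55 CPM) was above Dpt (3.47). In the remaining libraries every fibroblast marker was above every endothelial marker. Mesothelial markers (6 genes) summed to 1380 CPM in Ptprz1-/- replicate 1 and to between 55.8 and 279 CPM in the other libraries. In RNA of mixed cells, fewer cells of a type and less RNA per cell cannot be told apart.

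Values per library are given below in the order of replicates 1, 2 and 3, the Ptprz1+/+ libraries before those labelled Ptprz1-/-, and a library is named by its label. Of the 66 genes, 56 had enough reads to be tested and 10 did not. Averaged over the 6 libraries and divided by gene length, 20 genes reached at least 10 CPM per kb, 24 lay between 1 and 10, and 22 lay under 1. The highest were the secreted ligands Slit3 (152 ± 50.03 CPM per kb, mean ± SD, n = 6) and Sema3c (102 ± 40.2), then the plexin Plxnb2 (91.1 ± 9.79) and Slit2 (73.9 ± 12.5). These 4 genes made up 52.5% of the summed per-length level of all 66. The ranges of mean ± SD overlapped between neighbours in this order. Summed over all members, the per-length level was 804 ± 128 in Ptprz1+/+ and 793 ± 112 CPM per kb in the libraries labelled Ptprz1-/- (SD, n = 3 each). The semaphorins summed to 177 ± 23.6 and 219 ± 43.3 CPM per kb, the Slits to 245 ± 56.2 and 207 ± 70.02, and the plexins to 144 ± 25.0 and 138 ± 19.5. For each of these sums the difference between genotypes was smaller than the larger of the 2 SDs.

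**Figure D1:**
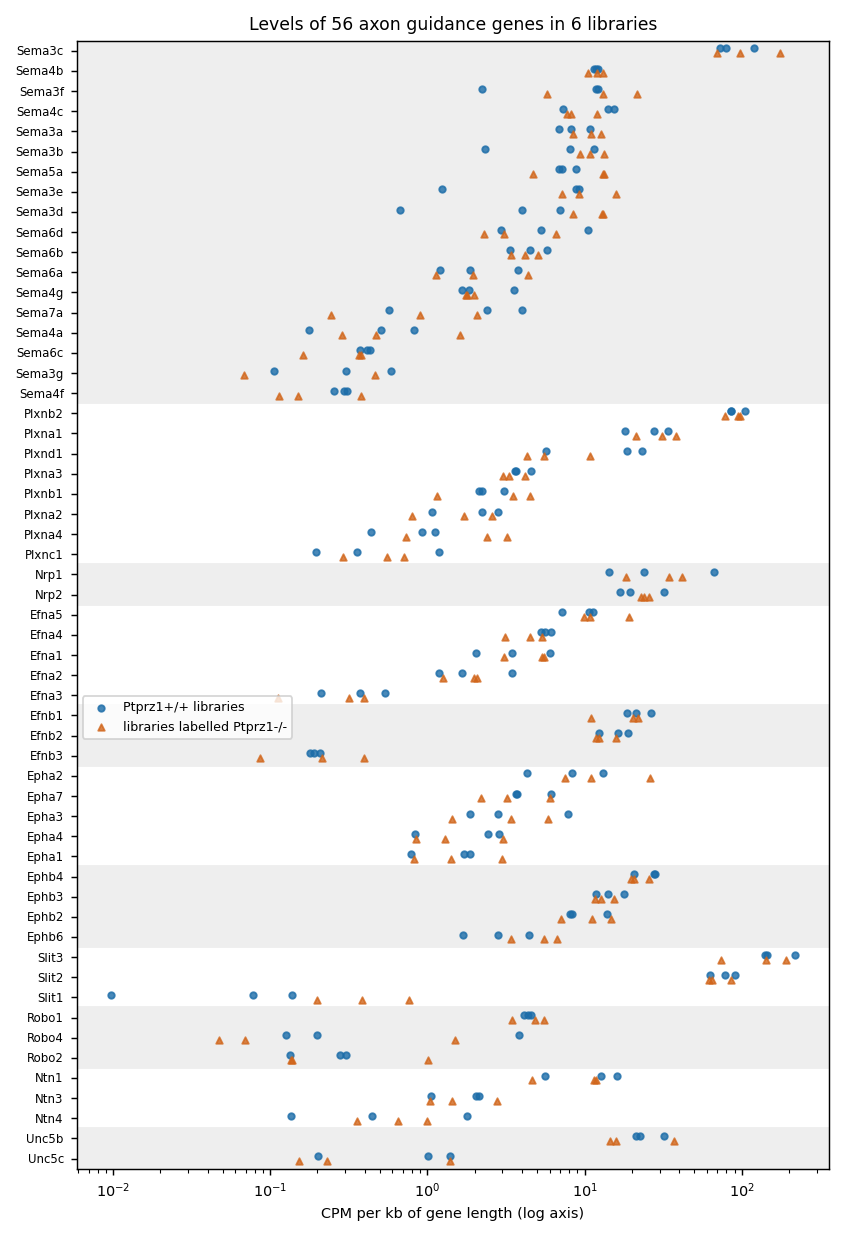
Level of each of the 56 tested genes in CPM per kb of gene length (log axis), grouped by family and ordered by level within a family. Circles are Ptprz1+/+ libraries and triangles the libraries labelled Ptprz1-/-, and the value of 0 for Sema3g in Ptprz1-/- replicate 2 cannot be drawn on this axis. Slit3, Sema3c, Plxnb2 and Slit2 lie at the right, while Robo4 and Slit1 spread most widely along the axis.

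No member passed the test between genotypes. With edgeR's quasi-likelihood test and Benjamini-Hochberg adjustment over 13609 genes, 0 of the 56 members and 0 genes in all (0%) had an adjusted p under 0.05. The unadjusted p was under 0.05 for 1 member, Slit1, against 366 genes (2.69%) in all. DESeq2, the alternative test, called 0 of the 55 members with an adjusted value, against 30 genes (0.221%) in all, and its unadjusted p was under 0.05 for 4 members (Slit1, Plxna4, Sema3d and Plxnd1), which is 7.14% of the members against 3.63% of all genes. The 3 libraries of each genotype did not overlap for 2 members, Slit1 and Sema3d, against 991 genes (7.28%) in all. Both were higher in the libraries labelled Ptprz1-/-, the direction of 483 (3.55%) of all genes. In edgeR's quasi-likelihood fit 1.79% of the members had an unadjusted p under 0.05, below the share of all genes, while the likelihood ratio test, limma voom, the fit with no filter on low counts and the fit with a replicate block gave shares above it, as DESeq2 did.

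The log2 fold change, given throughout as Ptprz1-/- over Ptprz1+/+, was above 0 for 25 members and below 0 for 31. Its median was -0.14, against -0.0047 over all genes tested. The median standard error (SE) was 0.466 for the members and 0.241 for all genes, although the median levels were alike at 26.9 and 23.8 CPM. The 95% interval of the fold change lay within 1 log2 unit of 0 for 13 of 56 members (23.2%) and for 63.6% of all genes. For the remaining members a change of 2-fold in at least one direction lay inside the interval, so the data neither show nor bound away a difference of that size.

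**Figure D2:**
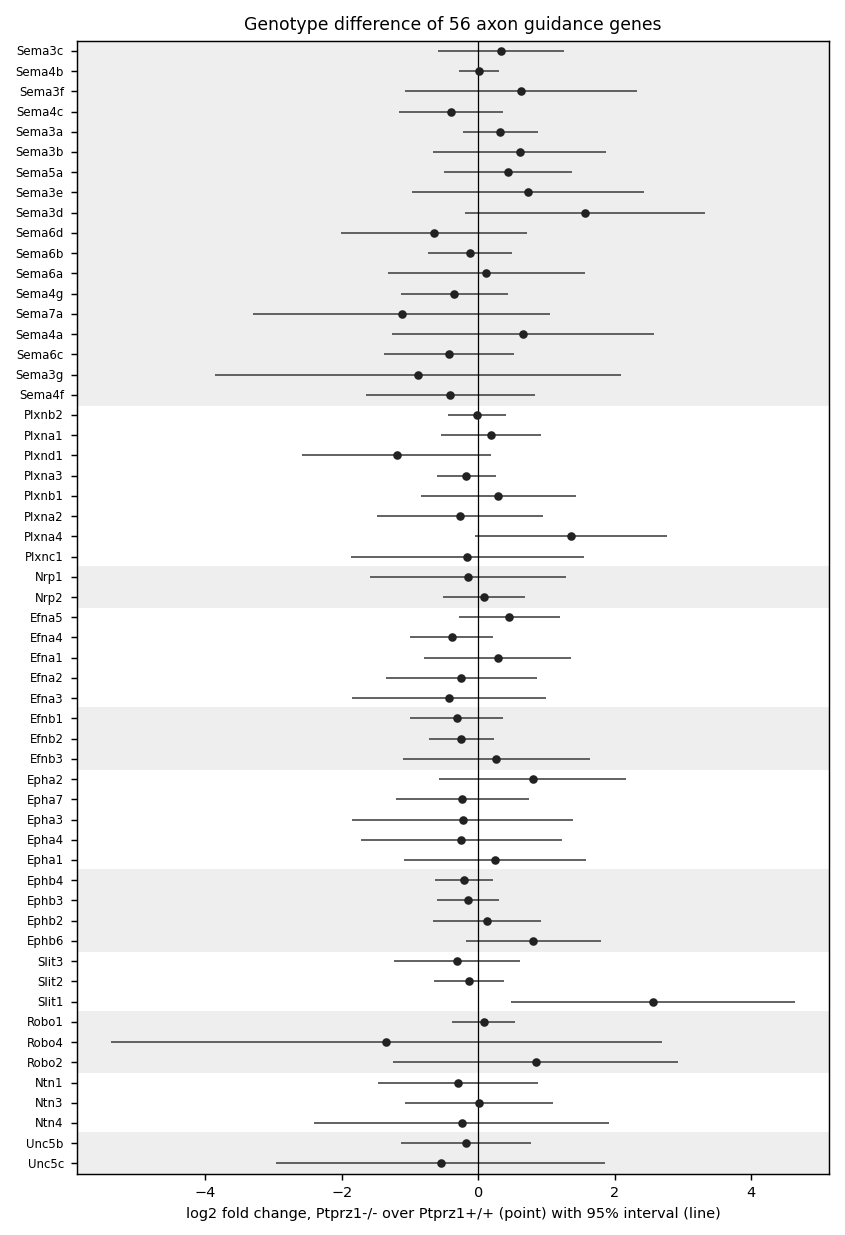
Log2 fold change of the 56 tested genes (points, Ptprz1-/- over Ptprz1+/+) with the 95% interval of edgeR's quasi-likelihood fit (lines), from 3 libraries per genotype. The interval of Slit1 alone leaves out 0 before adjustment, and that of Robo4 is the widest, from -5.38 to 2.69.

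Among the Slits, the secreted ligands of the Robo receptors, Slit3 and Slit2 were abundant and Slit1 was nearly silent. Slit3 was at 758, 732 and 1144 CPM across Ptprz1+/+ and 383, 1003 and 746 CPM across the libraries labelled Ptprz1-/-. It was lowest in Ptprz1-/- replicate 1 and the genotypes overlapped, with a log2 fold change of -0.31 (SE 0.383). Slit2 was at 539, 433 and 619 CPM against 440.3, 585 and 422 CPM, a range of less than 2-fold over all libraries, with a log2 fold change of -0.14 (SE 0.214).

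Slit1 (chr19:41600257-41743665 on GRCm38) was the member with the highest log2 fold change and the lowest p. It was counted in 13, 1 and 7 reads against 35, 63 and 17, that is 0.785, 0.0550 and 0.442 CPM across Ptprz1+/+ and 2.17, 4.32 and 1.12 CPM across the libraries labelled Ptprz1-/-. Every library labelled Ptprz1-/- was above every Ptprz1+/+ library. With 1 and 7 reads in Ptprz1+/+ replicates 2 and 3, Slit1 passed the filter on low counts only through the libraries labelled Ptprz1-/-. Its place among the tested members thus depended on the group in which it was high. The means were 0.427 ± 0.365 CPM and 2.54 ± 1.63 CPM (SD, n = 3 each). The log2 fold change was 2.56 (SE 0.865), with a 95% interval from 0.48 to 4.64, an unadjusted p of 0.0232 in edgeR's quasi-likelihood fit and an adjusted p of 1.00. The adjusted p of DESeq2 was 0.665. The log2 fold change was 1.94 without Ptprz1-/- replicate 2 and 3.35 without Ptprz1+/+ replicate 1. Ptprz1+/+ replicate 2 held 1 read, and the log2 fold change was 2.03 without that library. Slit1 made up at most 0.277% of the summed per-length level of the 3 Slits in any library.

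The Robo receptors were far lower than their ligands on the same per-length scale. The 4 Robo genes summed to between 3.66 and 8.51 CPM per kb in the 6 libraries, and the 3 Slits to between 138 and 309. Robo1, the leading receptor, was steady at 31.3, 34.6 and 33.0 CPM against 26.1, 36.6 and 41.8 CPM, with a log2 fold change of 0.08 (SE 0.190). Robo2 was at 1.09, 2.25 and 2.46 CPM against 1.12, 1.10 and 8.19 CPM and stood out only in Ptprz1-/- replicate 3. Robo3 had at most 2 reads in any library.

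Robo4, the Robo receptor known from endothelium, had the widest range of all members. Its counts were 13, 9 and 239 reads against 3, 4 and 90, or 0.785, 0.495 and 15.1 CPM across Ptprz1+/+ and 0.186, 0.275 and 5.94 CPM across the libraries labelled Ptprz1-/-. The replicate 3 library of each genotype was high and the other 4 libraries were all under 1 CPM. Robo4 made up 44.9% and 18.7% of the summed Robo level in the 2 high libraries and between 1.29% and 4.43% in the rest. The log2 fold change of -1.35 (SE 1.68) was the lowest of the members, and its interval from -5.38 to 2.69 holds large changes of either sign. Without Ptprz1+/+ replicate 3 it turned to 1.73, and without Ptprz1-/- replicate 3 it was -4.54.

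The class 3 semaphorins, secreted ligands of neuropilin and plexin complexes, were led by Sema3c. Sema3c, known for its role in the cardiac outflow tract, was at 659.8, 435 and 398 CPM across Ptprz1+/+ and 383, 961 and 538 CPM across the libraries labelled Ptprz1-/-. It was highest in Ptprz1-/- replicate 2 and lowest in Ptprz1-/- replicate 1, so the largest difference lay within one genotype, and the log2 fold change was 0.33 (SE 0.383). It made up between 48.6% and 84.1% of the summed per-length level of the 7 class 3 genes. Of these 7 genes, 6 had a higher mean in the libraries labelled Ptprz1-/-. Over all genes tested, 6685 of 13609 had a log2 fold change above 0. Of the 7, 4 (Sema3b, Sema3d, Sema3e and Sema3f) were lowest of all in Ptprz1+/+ replicate 2, the lowest library for 26.5% of all genes. The Ptprz1+/+ means of these 4 include that low library.

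Sema3d (chr5:12383166-12588943), a ligand that acts on endothelial cells, did not overlap between genotypes. It was at 26.0, 4.40 and 45.6 CPM across Ptprz1+/+ and 84.0, 85.3 and 55.2 CPM across the libraries labelled Ptprz1-/-, counted in 430, 80 and 723 reads against 1355, 1243 and 835. The gap between the groups was narrow beside the spread within Ptprz1+/+, where replicate 2 was far below the other two. The means were 25.3 ± 20.6 and 74.8 ± 17.1 CPM, the log2 fold change 1.56 (SE 0.729), the 95% interval -0.19 to 3.32 and the unadjusted p 0.0725 by edgeR. The fold change was 1.06 without Ptprz1+/+ replicate 2 and 2.302 without Ptprz1+/+ replicate 3.

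Sema3b, Sema3e and Sema3f were low in the same library. Sema3e, the direct ligand of plexin D1, was at 60.2, 8.47 and 63.2 CPM against 108, 62.7 and 48.9 CPM. Sema3f, a neuropilin-2 ligand, was at 40.1, 7.59 and 41.5 CPM against 73.4, 19.6 and 44.5 CPM, and Sema3b at 27.8, 7.97 and 39.6 CPM against 37.1, 32.0 and 45.7 CPM. In all of these the genotypes overlapped, and the log2 fold changes were 0.73 (SE 0.706), 0.63 (SE 0.708) and 0.61 (SE 0.528). Sema3a, the founding repellent of the class, ranged from 40.5 to 75.7 CPM with no such drop. Sema3g, known from arterial endothelium, was rare, at 0.483, 1.37 and 2.65 CPM against 0.310, 0 and 2.11 CPM. Within each genotype it was highest in replicate 3, and no read was counted in Ptprz1-/- replicate 2. Its log2 fold change of -0.89 (SE 1.23) was -3.18 without Ptprz1-/- replicate 3 and -0.20 without Ptprz1+/+ replicate 3.

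Of the membrane-bound semaphorins, Sema4b had the highest mean level per kb (11.8 ± 0.818), a range of mean ± SD that Sema4c (10.8 ± 3.49) and Sema5a (8.99 ± 3.50) overlapped, and the narrowest range over the libraries. It was at 44.9, 46.2 and 43.9 CPM against 45.6, 40.4 and 50.002 CPM, with a log2 fold change of 0.01 (SE 0.121) and a 95% interval from -0.28 to 0.30. Sema7a, the membrane-anchored member that also acts on integrins, was at 1.87, 7.86 and 13.2 CPM across Ptprz1+/+ and 0.806, 2.95 and 6.80 CPM across the libraries labelled Ptprz1-/-. Its order was the same in both genotypes, highest in replicate 3 and lowest in replicate 1 of each, and its log2 fold change of -1.12 (SE 0.904) was not called. It was -2.04 without Ptprz1-/- replicate 3 and -0.47 without Ptprz1+/+ replicate 3. Sema6d and Sema6a had the same order of replicates, Sema6d at 19.0, 34.03 and 68.3 CPM against 14.8, 19.9 and 42.6 CPM and Sema6a at 8.28, 12.9 and 25.9 CPM against 7.82, 13.3 and 29.9 CPM. Sema5a was at 73.9, 95.9 and 78.1 CPM against 50.6, 141 and 144 CPM, with a log2 fold change of 0.43 (SE 0.389), and its lowest and highest libraries were both labelled Ptprz1-/-.

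**Figure D3:**
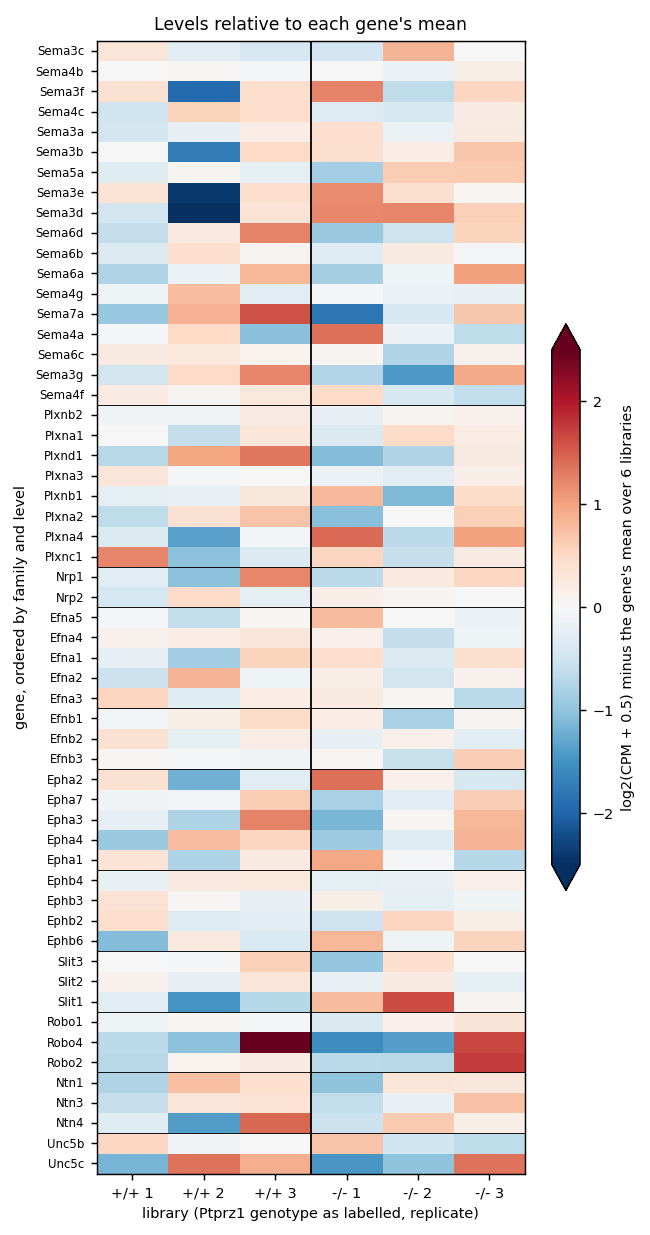
Log2(CPM + 0.5) of the 56 tested genes in each library, minus the gene's mean over the 6 libraries, with the families separated by lines. Red is above and blue below the gene's mean, and colours saturate at 2.5. Sema3b, Sema3d, Sema3e and Sema3f are blue in Ptprz1+/+ replicate 2, and Robo4 is red in replicate 3 of both genotypes.

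Among the plexins, the transmembrane receptors of semaphorins, Plxnb2 was the most even. It was at 544, 547 and 668 CPM across Ptprz1+/+ and 499.5, 608 and 627 CPM across the libraries labelled Ptprz1-/-, with a log2 fold change of -0.02 (SE 0.178) and a 95% interval from -0.45 to 0.41. Plxna1, a receptor used with neuropilins, was at 249, 163 and 307 CPM against 192, 345 and 280.2 CPM, with a log2 fold change of 0.18 (SE 0.304). Plxnb3 was too low to test.

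Plxnd1 (chr6:115954811-115995005), the endothelial receptor of Sema3e, was at 39.3, 128 and 161 CPM across Ptprz1+/+ and 29.9, 38.1 and 75.2 CPM across the libraries labelled Ptprz1-/-. Ptprz1+/+ replicates 2 and 3 were above every library labelled Ptprz1-/-, but Ptprz1+/+ replicate 1 lay among them. The means were 109 ± 62.8 and 47.7 ± 24.1 CPM and the log2 fold change was -1.20 (SE 0.573), with an interval of -2.58 to 0.18 and an unadjusted p of 0.0784 by edgeR. It was -0.81 without Ptprz1+/+ replicate 3 and -1.69 without Ptprz1-/- replicate 3. Plxna4 (chr6:32144268-32588192), named because DESeq2 gave it an unadjusted p under 0.05, was at 11.9, 5.61 and 14.3 CPM against 41.1, 9.47 and 30.8 CPM. Its counts in the libraries labelled Ptprz1-/- ran from below the highest Ptprz1+/+ library to well above it, and the log2 fold change was 1.36 (SE 0.584) with an unadjusted p of 0.0564 by edgeR. Reads of Plxna4 cannot be separated from those of an antisense gene that shares 110 of its exon bases, since the use of strand in counting is not known. The same holds for Plxna1, which shares 970 exon bases with an antisense gene.

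Neuropilins are co-receptors of class 3 semaphorins and of VEGF. Nrp1 was at 140.3, 84.4 and 392 CPM across Ptprz1+/+ and 108, 203 and 247 CPM across the libraries labelled Ptprz1-/-. It was highest in replicate 3 within each genotype, and its log2 fold change of -0.14 (SE 0.596) turned to 0.73 without Ptprz1+/+ replicate 3. Nrp2 was at 113, 215 and 131 CPM against 174, 161 and 153 CPM and highest in Ptprz1+/+ replicate 2, the library in which Nrp1 was lowest. Nrp1 therefore made up 30.8% of the summed neuropilin level in that library and 77.2% in Ptprz1+/+ replicate 3. The libraries labelled Ptprz1-/- lay between these, from 41.5% to 64.7%.

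**Figure D4:**
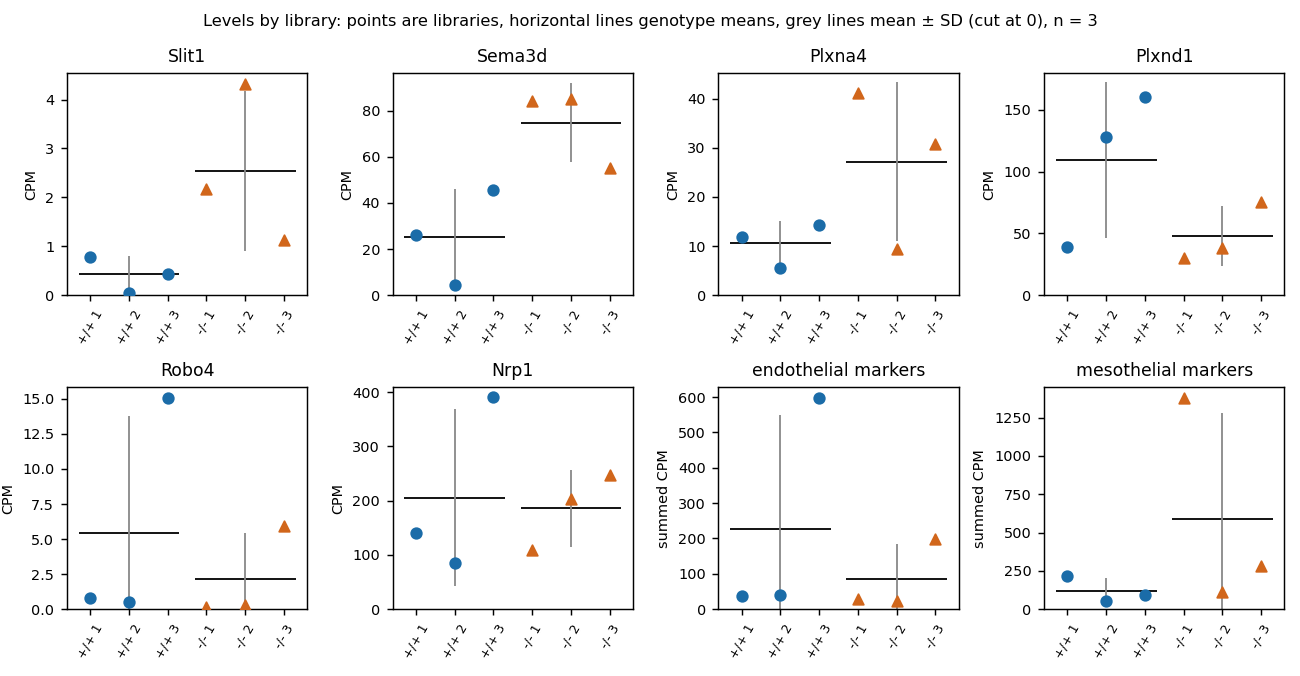
CPM of Slit1, Sema3d, Plxna4, Plxnd1, Robo4 and Nrp1 and the summed CPM of the endothelial and mesothelial markers in each library (circles Ptprz1+/+, triangles labelled Ptprz1-/-), with genotype means (horizontal lines) and SD (grey lines, cut at 0, n = 3). Slit1 and Sema3d do not overlap between genotypes, Robo4 and the endothelial sum share their highest library at 15.1 and 598 CPM, and the mesothelial sum peaks at 1380 CPM in Ptprz1-/- replicate 1.

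Ephrins and Eph receptors, which signal between touching cells, gave no called difference between genotypes. Efnb1 was at 60.3, 69.6 and 86.9 CPM across Ptprz1+/+ and 71.8, 36.0 and 66.4 CPM across the libraries labelled Ptprz1-/-, and Efnb2, the arterial ligand, was at 81.4, 53.4 and 71.1 CPM against 53.7, 68.2 and 51.3 CPM. Both overlapped between genotypes, and their log2 fold changes were -0.32 (SE 0.285) and -0.25 (SE 0.198). Of the receptors of ephrin-B ligands, Ephb4, the venous receptor, was at 89.3, 120.4 and 122 CPM against 86.1, 89.8 and 111 CPM and Ephb3 at 84.4, 67.1 and 56.5 CPM against 72.7, 55.3 and 60.2 CPM. Their log2 fold changes of -0.21 (SE 0.176) and -0.14 (SE 0.189) had intervals of -0.63 to 0.22 and -0.60 to 0.31, among the narrowest of the members. Ephb6, a receptor whose kinase domain is inactive, was at 6.34, 16.7 and 10.7 CPM against 25.3, 12.8 and 20.9 CPM, with a log2 fold change of 0.81 (SE 0.409) and an unadjusted p of 0.0924 by edgeR. Its groups overlapped only through Ptprz1-/- replicate 2, which lay below Ptprz1+/+ replicate 2.

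Ephrin-A ligands and EphA receptors overlapped between genotypes as well. Efna5 was at 43.1, 28.8 and 45.8 CPM across Ptprz1+/+ and 77.7, 43.9 and 39.96 CPM across the libraries labelled Ptprz1-/-, with its highest value in Ptprz1-/- replicate 1. Efna4 was at 8.46, 9.02 and 9.84 CPM against 8.62, 5.01 and 7.20 CPM, and Efna1, which is induced in activated endothelium, at 5.62, 3.35 and 9.84 CPM against 9.06, 5.01 and 8.79 CPM. The log2 fold changes of Efna5, Efna4 and Efna1 were 0.46 (SE 0.308), -0.39 (SE 0.254) and 0.28 (SE 0.448), and the groups overlapped for each. Epha2, the leading EphA receptor, was at 51.2, 16.8 and 32.6 CPM across Ptprz1+/+ and 102, 43.0 and 29.5 CPM across the libraries labelled Ptprz1-/-. Its highest value, like that of Efna5, was in Ptprz1-/- replicate 1 and its lowest in Ptprz1+/+ replicate 2, and the log2 fold change of 0.80 (SE 0.569) dropped to 0.12 without Ptprz1-/- replicate 1. Epha7 was at 24.6, 25.0 and 41.1 CPM against 14.8, 21.6 and 40.8 CPM, highest in replicate 3 of both genotypes. Epha5 and Ephb1, too low to test, had most of their reads in the same libraries, with 24 and 29 reads of Epha5 and 20 and 30 of Ephb1 in the replicate 3 libraries and at most 5 and 2 elsewhere.

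Netrins and their Unc5 receptors gave no called difference. Ntn1, the main netrin, was at 32.7, 94.5 and 74.6 CPM across Ptprz1+/+ and 27.4, 69.2 and 67.9 CPM across the libraries labelled Ptprz1-/-, lowest in replicate 1 of both genotypes, with a log2 fold change of -0.30 (SE 0.485). Ntn3 was at 5.195, 10.0 and 10.4 CPM against 5.09, 7.001 and 13.7 CPM and had a log2 fold change of 0.01 (SE 0.449), whose sign depended on the scaling. Unc5b, the netrin receptor of endothelial cells, was at 189, 124 and 132 CPM across Ptprz1+/+ and 217, 93.5 and 84.5 CPM across the libraries labelled Ptprz1-/-. It was highest in replicate 1 of both genotypes, the reverse of Ntn1, and its log2 fold change was -0.17 (SE 0.395). Unc5c was at 1.87, 13.03 and 9.34 CPM against 1.43, 2.13 and 13.01 CPM, low in 3 libraries (at most 2.13 CPM) and at least 9.34 CPM in the other three, with a log2 fold change of -0.55 (SE 1.00) that was -2.18 without Ptprz1-/- replicate 3 and -0.025 without Ptprz1+/+ replicate 2. Unc5a, Unc5d and Ntn5 were too low to test.

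Many members had a wide range over the libraries. The log2 range over the 6 libraries had a median of 1.68 for the members and 0.77 for all genes, and it exceeded 2 for 19 members and was under 1 for 12. Ptprz1+/+ replicate 3 was the highest library for 17 members (30.4%), against 12.98% of all genes. The replicate 3 library was the highest within both genotypes for 15 members (26.8%), against 1924 genes (14.1%) in all. These were Epha3, Epha7, Ephb4, Nrp1, Ntn3, Plxna2, Plxnb2, Plxnd1, Robo2, Robo4, Sema3b, Sema3g, Sema6a, Sema6d and Sema7a. The endothelial markers had the same order for 11 of 12 genes, and their sum was 598 and 199 CPM in these 2 libraries and at most 40.6 CPM in the other 4. So did 5 of 10 fibroblast markers, whose sum was 34475 and 34265 CPM in these 2 libraries and at most 26820 CPM in the other 4. Among smooth muscle and pericyte markers it was 0 of 8, and among mesothelial markers 0 of 6. Among the tested markers of the other lists it was 2 of 3 neural and glial, 1 of 3 leukocyte, 1 of 5 lymphatic endothelial and 0 of 1 epithelial. Of the 9 members listed as known from endothelium (Efna1, Efnb2, Ephb4, Nrp1, Nrp2, Plxnd1, Robo4, Sema3g and Unc5b), 5 were among the 15. The part of the endothelial, fibroblast or other cell content in these levels was not tested.

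Ptprz1-/- replicate 1 was the lowest library for 18 members (32.1%), against 16.3% of all genes, and the highest for 12 (21.4%), against 17.6%. The 12 were Efna5, Epha1, Epha2, Ephb6, Plxna4, Plxnb1, Sema3a, Sema3e, Sema3f, Sema4a, Sema4f and Unc5b. In that library the summed mesothelial level (1380 CPM) was the highest of the 6 libraries. The summed smooth muscle and pericyte level was also highest there (4590 CPM), but close to that of Ptprz1+/+ replicate 1 (4411 CPM). The latter was the highest library for 5 members (8.93%, against 15.2% of all genes). The summed fibroblast level was lowest in Ptprz1-/- replicate 1 (20414 CPM), close to that of Ptprz1-/- replicate 2 (20968 CPM). The part of these cells in the values was not tested. Ptprz1+/+ replicate 2 was the lowest library for 14 members (25%), near the 26.5% of all genes, among them the 4 class 3 semaphorins named above and Slit1. The summed levels of smooth muscle and pericyte, mesothelial and lymphatic endothelial markers were also lowest there, at 841, 55.8 and 23.1 CPM. Gene by gene, Acta2, Tagln, Pdgfrb, Msln, Upk3b, Lrrn4, Upk1b, Lyve1 and Flt4 were lowest in that library. The other markers of these lists were not, and Reln was highest there, at 4.89 CPM. The contribution of these cells was not tested either.

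The sequence just before the gene start is shown for 3 of the 5 members with the widest ranges, Robo4 and Sema3g, both highest in replicate 3, and Sema3d, which did not overlap between genotypes. Each line gives the 100 bases that end 1 base before the start in the deposited table, on the plus strand of GRCm38.p6 from RefSeq, with GGAA or its reverse complement TTCC, the core of ETS factor motifs, in capitals.
Robo4, chr9:37401797-37401896: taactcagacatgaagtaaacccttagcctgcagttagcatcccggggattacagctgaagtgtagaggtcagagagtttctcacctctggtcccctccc
Sema3g, chr14:31217760-31217859: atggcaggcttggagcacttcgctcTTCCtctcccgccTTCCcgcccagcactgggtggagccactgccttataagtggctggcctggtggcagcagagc
Sema3d, chr5:12383066-12383165: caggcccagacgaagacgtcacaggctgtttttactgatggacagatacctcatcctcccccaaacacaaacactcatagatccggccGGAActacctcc
ETS factors such as Erg are known regulators of endothelial genes. The core occurred 2 times in the window of Sema3g, 1 time in that of Sema3d and 0 times in that of Robo4. It was found in the 100 bases before the RefSeq start in 66.8% of all 32851 RefSeq promoters searched on both strands, so its presence does not set these genes apart. The RefSeq start can differ from the deposited gene start that the 3 printed windows use. RefSeq promoters were matched for 57 of the 66 members, and 42 of their 73 promoters (57.5%) held the core. Counted by gene, 34 of the 57 members (59.6%) held it in at least 1 promoter.

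Partners and effectors of the pathways were read from 5 lists of 69 genes, of which 65 were tested and 0 called. The log2 fold change was above 0 for 25 and below 0 for 40, with a median of -0.05. The unadjusted p was under 0.05 for 3 genes (4.62%, against 2.69% of all genes), higher for Ablim3 and lower for Limk1 and Fes, and the genotypes did not overlap for 9 (13.8%, against 7.28% of all genes). Limk1, the kinase that phosphorylates cofilin, was at 35.9, 53.4 and 42.5 CPM across Ptprz1+/+ and 31.0, 31.8 and 31.0 CPM across the libraries labelled Ptprz1-/-, with a log2 fold change of -0.49 (SE 0.166). Ablim3, an actin-binding LIM protein, was at 4.11, 1.76 and 2.84 CPM across Ptprz1+/+ and 5.95, 8.65 and 4.82 CPM across the libraries labelled Ptprz1-/-, with a log2 fold change of 1.16 (SE 0.400). In both, every library of one genotype lay above every library of the other, and the adjusted p was 1.00 by edgeR. Cfl1, which encodes cofilin, was the highest of this list of 20 at 763 CPM per kb and had a log2 fold change of -0.35 (SE 0.189).

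The remaining lists held 0 genes with an unadjusted p under 0.05. Among 18 semaphorin and plexin partners the lowest p values by edgeR were those of L1cam (0.0550), an adhesion molecule that binds neuropilin-1, and Farp2 (0.0690), an exchange factor that acts with plexin A, with log2 fold changes of -1.11 and 0.34. Among 8 Slit and Robo effectors they were those of Enah (0.0503), an actin regulator bound by Robo, and the proteoglycan Gpc1 (0.0854), with log2 fold changes of -0.66 and -0.92. For the Eph effectors the lowest were Tiam1 (0.161) and Vav3 (0.181), and for the netrin and RGM partners Rgmb (0.118) and Draxin (0.198), a netrin antagonist. The most abundant genes of these 4 lists were Gipc1, Gpc1, Grb10 and Dcbld2.

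The 18 tested members without values above were Efna2, Efna3, Efnb3, Epha1, Epha3, Epha4, Ephb2, Ntn4, Plxna2, Plxna3, Plxnb1, Plxnc1, Sema4a, Sema4c, Sema4f, Sema4g, Sema6b and Sema6c. Their mean level ran from 0.212 (Efnb3) to 10.8 CPM per kb (Sema4c). The log2 fold change was above 0 for 5 and below 0 for 13, from -0.43 (Efna3) to 0.66 (Sema4a), and the lowest unadjusted p by edgeR was 0.252 (Sema4c).

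The 10 members that were not tested had at most 40 reads in any library. They were Epha5, Epha10, Ephb1, Ntn5, Plxnb3, Robo3, Sema4d, Sema5b, Unc5a and Unc5d. Sema4d, a plexin B1 ligand of leukocytes, had 27, 11 and 4 reads against 40, 7 and 9. Epha10 and Ntn5 had at most 1 read in a library. A level this low was not measurable at this depth rather than shown to be absent.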

How the data were processed

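RNA of 6 libraries, 3 per genotype, was read from one table of 21999 genes. The authors deposited raw read counts of each gene in every library, which was the unit tested here, and FPKM values of the same libraries, which were not used. The authors' mean signal per genotype and the log2 fold change and p-value of their own comparison were also deposited and not used. Genotype and replicate came from the sample labels. The submitters' processing notes name STAR, TopHat, HTSeq, DESeq2, edgeR and the build GRCm38 (mm10), and their roles, their versions and whether counting used strand are not given in the sources used here. Of the 66 members, 65 identifiers were found in GENCODE M21, all at an overlapping position of GRCm38, and 13 share exon bases with a gene on the opposite strand, whose reads cannot be separated here.

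The members, lists and tests were chosen with earlier results of these data known. One model was fitted to all genes that passed filterByExpr (13609) with edgeR 4.0.16 in R 4.3.3 (TMM, glmQLFit, glmQLFTest, genotype as the only term), and p-values were adjusted by Benjamini-Hochberg over all of them with a threshold of 0.05. The SE was taken as |log2 fold change| over the square root of the F statistic. Library values were CPM after TMM scaling, and levels per kb use the deposited gene length. The depth of 14496881 to 17709663 counts leaves low genes to few reads. The code was tested on simulated data. Members given with values in every library were the 2 highest of each family, those with an unadjusted p under 0.05, those that did not overlap, the highest and lowest log2 fold change, the 5 widest log2 ranges and 9 genes known from endothelium. The other members printed with values (Sema3a, Sema3b, Sema3e, Sema3f, Sema5a, Sema6a, Sema6d, Plxna4, Ephb6 and Robo2) were picked after their values were seen. At most 3 partner genes were named per list, by lowest p and highest level, and Fes after its p was seen. Marker lists whose range is not given above summed to 23.1 to 123 CPM (lymphatic endothelial), 0.961 to 3.72 CPM (epithelial), 10.4 to 50.3 CPM (leukocyte) and 7.96 to 28.6 CPM (neural and glial). Alternatives were DESeq2 1.42.0, edgeR's likelihood ratio test, limma 3.58.1 voom, upper-quartile scaling, no TMM, no filter, at least 10 counts in every library, an adjusted p under 0.1, the replicate number as a block and each library left out. Leaving out both replicate 3 libraries was added after the data were seen. The isolations were separate pools of mice, so p-values measure the spread between pools.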

Additional observations from a re-analysis of the deposited data

How the results depend on the processing

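No member was called under any alternative. The genes called in all, 0 in the main test, numbered 30 with DESeq2 and 17 with edgeR's likelihood ratio test. Members with an unadjusted p under 0.05 numbered 4 with DESeq2 (7.14%, against 3.63% of all genes), 4 with the likelihood ratio test (7.14%, against 2.68%), 2 with limma voom (3.57%, against 2.51%), 4 with no filter on low counts (6.06%, against 2.51%) and 0 with at least 10 counts in every library (0%, against 2.66%), which leaves out Slit1. They numbered 1 to 4 when a library was left out. They were 4 without Ptprz1+/+ replicate 2 (6.78%, against 2.51% of all genes), 3 without Ptprz1+/+ replicate 1 (5.17%, against 4.84%), Ptprz1-/- replicate 1 (5.08%, against 2.23%) or Ptprz1-/- replicate 3 (5.26%, against 2.86%), 2 without Ptprz1-/- replicate 2 (3.39%, against 2.34%) and 1 without Ptprz1+/+ replicate 3 (1.75%, against 3.53%). Members that did not overlap fell to 1 of 48 (2.08%, against 7.15% of all genes) with at least 10 counts in every library. They numbered 5 to 8 when a library was left out (8.47% to 14% of the members, against 13.9% to 22% of all genes), where fewer libraries have to separate. Without both replicate 3 libraries they were 10 of 55 (18.2%, against 26.5% of all genes). The members highest in replicate 3 of both genotypes numbered 18 without Ptprz1+/+ replicate 1 (31%, against 17.3% of all genes) and 22 without Ptprz1+/+ replicate 2 (37.3%, against 25.1%). They numbered 24 without Ptprz1-/- replicate 1 (40.7%, against 19.1%) and 20 without Ptprz1-/- replicate 2 (33.9%, against 21.5%). With a library left out, replicate 3 has fewer libraries to exceed. The median log2 fold change of the members lay between -0.11 and 0.05 when a library was left out, and was 0.05 without Ptprz1+/+ replicate 3 and 0.04 without Ptprz1-/- replicate 1.

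Deviations from the genotype means correlated between libraries of the same number at 0.46, -0.06 and 0.53 for replicates 1, 2 and 3. Ptprz1+/+ replicate 1 correlated at -0.58 with Ptprz1-/- replicate 3, and Ptprz1+/+ replicate 3 at -0.47 with Ptprz1-/- replicate 1. Replicates 1 and 3 thus resembled the library of their number in the other genotype, and replicate 2 did not. The labels do not say whether the isolations were paired. With the replicate block, 0 genes were called and 6 members (10.7%, against 5.07% of all genes) had an unadjusted p under 0.05.

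No log2 fold change that changed sign had been called. Nrp1 was 0.0661 with limma voom, 0.0578 with the replicate block and 0.47 without both replicate 3 libraries. Ntn3 was -0.0618 with voom, -3.27e-05 with upper-quartile scaling, -0.0481 with the block and -0.33 without both replicate 3 libraries. Plxnb2 was 0.00262 without TMM. Without both replicate 3 libraries, Plxnb2 was 0.0212, Robo1 -0.0731, Sema4b -0.083 and Slit2 0.077. When each library in turn was dropped, values ran from -0.0234 to 0.76 for Efna1, -0.74 to 0.0518 for Epha7, -0.27 to 0.0258 for Ephb3, -0.52 to 0.73 for Nrp1, -0.0882 to 0.41 for Nrp2, -0.62 to 0.031 for Ntn1, -0.50 to 0.28 for Ntn3, -0.0317 to 0.40 for Plxna1, -0.0845 to 0.084 for Plxnb2, -0.0741 to 0.25 for Robo1, -4.54 to 1.73 for Robo4, -0.11 to 0.60 for Sema3c, -0.0652 to 0.0869 for Sema4b and -0.73 to 0.0641 for Unc5b. The cause of these changes was not tested. With 3 libraries per genotype, the 95% interval stayed within 1 log2 unit of 0 for 13 of 56 members, and members under 10 reads in a library (8 of the 56 tested) rest on few reads.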
